A study of Mus musculus with 9 samples.

Results

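CC chemokine ligands are small secreted proteins that attract leukocytes, and 10 of their mouse genes are described here in lung dendritic cells before and after a period in culture. The genes are Ccl2, Ccl3, Ccl4, Ccl5, Ccl6, Ccl7, Ccl9, Ccl17, Ccl22 and Ccl24. They were taken by symbol from the 45535 named gene rows, each symbol matched a row, and all 10 passed the filter on low values. The RNA came from CD103+ dendritic cells of C57/BL6j mice treated for 7 days with bleomycin, which injures the lung and is used to model its fibrosis. Lungs had been digested with collagenase and the cells pulled out on magnetic beads against CD103, an integrin chain encoded by Itgae. Both groups share the strain, the bleomycin and the isolation. In the 5 samples called before culture RNA was taken directly, and in the 4 samples called after culture it was taken after the cells had spent 18 h in RPMI supplemented with fetal bovine serum and antibiotics. No untreated lung is analysed here. Whether each sample is a separate mouse or a pool is not stated, so the p-values measure the spread between these samples, which may be technical.

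The ligands act through a small set of shared G protein-coupled receptors, and the receptor decides which leukocyte is drawn. Ccl17 and Ccl22 bind CCR4 on T cells of the helper and regulatory kinds, Ccl3, Ccl4, Ccl5, Ccl6 and Ccl9 draw monocytes, T cells and other leukocytes, most of them through CCR1, Ccl2 and Ccl7 draw monocytes through CCR2, and Ccl24 draws eosinophils through CCR3. In lung, dendritic cells are a known source of Ccl17 and Ccl22, and macrophages and monocytes are known sources of several of the others.

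The deposited values are normalized read counts, from which whole reads could be recovered. Depth ran from 14.7 to 35.3 M reads in named genes, and the members held between 41 and 62672 reads per sample. Markers of type 1 conventional dendritic cells (cDC1, the cells that CD103 marks in lung) were present in both groups, but 9 of the 10 on the list fell after culture, Itgae and Xcr1 among them, and Batf3 rose. Their summed level was 144087 to 170495 normalized counts before and 21031 to 23593 after. All 8 markers of mature dendritic cells, Ccr7 and Fscn1 among them, rose, from a sum of 30144 to 35792 to a sum of 185514 to 206424. Of 7 markers of type 2 conventional dendritic cells (cDC2), Mgl2, Cd209a, Klf4 and Clec10a fell and Itgam rose (sum 29693 to 47756 before, 17281 to 31610 after). Markers of other cells were present before culture too. Of the 7 neutrophil markers tested 7 fell (sum 14298 to 25015 before, 932 to 1902 after), as did 7 of 8 natural killer (NK) cell markers (2706 to 4901 before, 940 to 1464 after). Fibroblast (15795 to 28708 before, 2238 to 4469 after), endothelial (21759 to 30588, then 2766 to 3649) and alveolar epithelial markers (24074 to 40368, then 4293 to 8162) fell in 7 of 7 genes each. Of 9 alveolar macrophage markers 7 fell and 1 rose (28651 to 39491, then 14541 to 18670). Of 12 monocyte and interstitial macrophage markers 5 fell, among them C1qa and Cx3cr1, and 2 rose, among them Lyz2 (123660 to 195377, then 161867 to 304635). Lyz2 made up most of that sum, and the other 11 markers summed to 34805 to 82830 before and 28172 to 62927 after. No list was at 0 in every gene, and the part of these cells in the results below was not tested. In such bulk samples fewer cells of a type and less RNA per cell cannot be told apart.

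After culture Ccl5, Ccl9, Ccl22 and Ccl7 were higher, Ccl4, Ccl17, Ccl24 and Ccl3 were lower, and Ccl6 and Ccl2 did not pass the test (limma on log2(value + 1), Benjamini-Hochberg adjusted p under 0.05). Over all 18202 genes tested, 68.8% passed this threshold, 34.2% as higher and 34.6% as lower, so the 4 higher and 4 lower members of 10 are read against that background. The median absolute log2 fold change of the members was 1.90, against 0.64 over all genes tested. Their median with sign was -0.07, and that of all genes was 0.01. The members were chosen with earlier results of these data known, so these comparisons are a description only. The groups did not overlap in 6 of the 10 members, against 57.3% of all genes tested. Without before culture replicate 4 and after culture replicate 2, chosen after the values were seen, 3 members were higher and 6 lower: Ccl7 lost its call, and Ccl2 and Ccl6 passed the test as lower. The former was the lowest and the latter the highest of its group in 8 of the 10 members each. Leaving them out therefore lowers most fold changes by construction, and no conclusion is drawn from it.

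**Figure D1:**
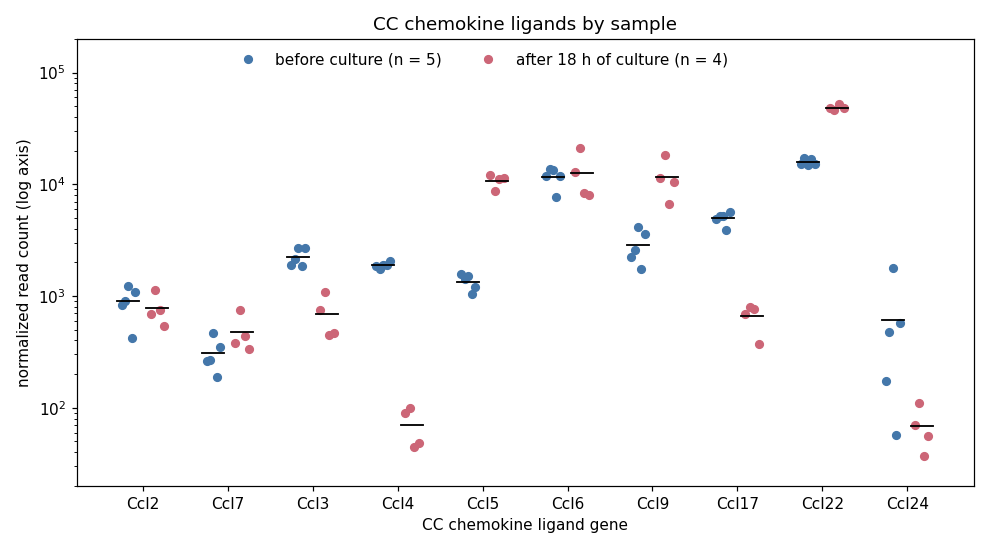
Normalized read count (log axis) of each CC chemokine ligand gene in every sample, with points for samples (5 before culture, 4 after 18 h of culture) and black lines for group means. Ccl3, Ccl4, Ccl5, Ccl9, Ccl17 and Ccl22 separate the groups in every sample, and Ccl2, Ccl6, Ccl7 and Ccl24 overlap.

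**Figure D2:**
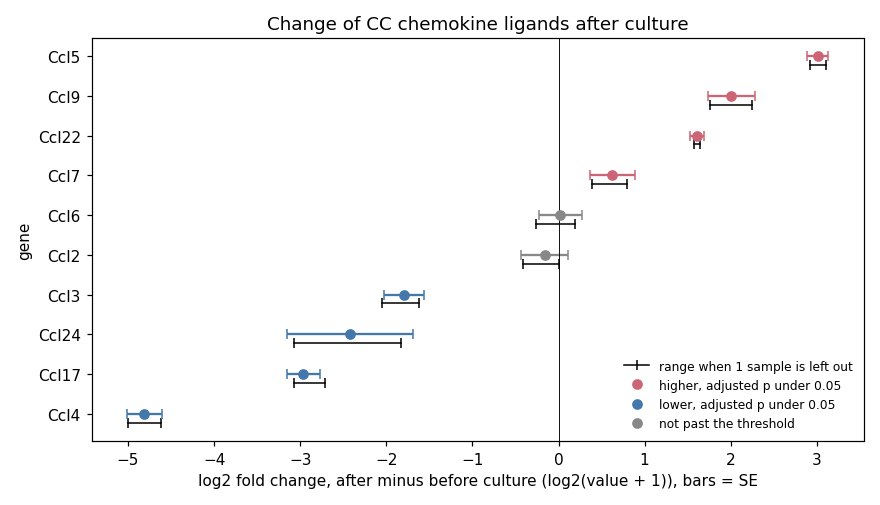
Log2 fold change after minus before culture on the log2(value + 1) scale for each gene, with the standard error as a bar and, under it, the range when 1 sample is left out. Colours mark genes past the adjusted p threshold; Ccl4 at -4.81 and Ccl5 at 3.01 are the ends of the range.

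The CCR4 ligands moved in opposite directions. Ccl22 is among the most abundant chemokines of dendritic cells. It read 15337, 17338, 14777, 16734 and 15310 normalized counts in replicates 1 to 5 before culture and 48078, 45955, 52534 and 47646 in replicates 1 to 4 after. Every sample after culture lay above every sample before, and the replicates of a group lay close together, with a coefficient of variation of 6.81% before and 5.78% after. The mean rose from 15899 ± 1083 (SD, n = 5) to 48553 ± 2808 (SD, n = 4), 3.05-fold, and the log2 fold change was 1.61 ± 0.08 (SE; adjusted p = 1.30e-09 by limma).

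Ccl17, which shares the receptor with Ccl22, read 4886, 5213, 5235, 3934 and 5604 before culture and 696, 797, 772 and 371 after. The groups did not overlap. The lowest value of each group was that of its replicate 4, but these samples carry different library numbers. The mean fell from 4974 ± 635 (SD, n = 5) to 659 ± 197 (SD, n = 4), 7.55-fold lower, with a log2 fold change of -2.97 ± 0.19 (SE; adjusted p = 1.28e-08 by limma). Among the 7 cDC2 markers, Mgl2 was 74.1-fold lower and Cd209a 75.0-fold lower after culture, and Klf4 and Clec10a fell as well. Itgam rose 2.20-fold, and Sirpa and Cd300a did not pass the test. The part of these cells in the level of Ccl17 was not tested. Levels of different genes are compared only per kilobase of annotated exons (GENCODE M21). On that scale Ccl22 was 0.604 to 0.940 times Ccl17 in the samples before culture and 12.8 to 28.4 times Ccl17 in those after. Thus Ccl17 was the more abundant transcript in 5 of 5 samples before culture, and Ccl22 in 4 of 4 after. The transcript of their receptor, Ccr4, had a mean of 277 ± 36.8 before and 245 ± 35.3 after and did not pass the test (log2 fold change -0.18, limma adjusted p = 0.242).

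Both genes lie on the plus strand of chromosome 8 in GRCm38, Ccl22 at chr8:94745590-94751699 and Ccl17 at chr8:94810453-94812036, with 58.8 kb between them. Promoter windows of 300 bases, from 250 before to 50 after the RefSeq start, were found for 5 of the 10 members (Ccl22, Ccl17, Ccl9, Ccl6 and Ccl3; RefSeq, GRCm38.p6). Those of Ccl22 (chr8:94745434-94745733) and Ccl17 (chr8:94810203-94810502) are shown 5′ to 3′ because these neighbours share a receptor and moved apart; capitals mark a match to a searched motif.
Ccl22: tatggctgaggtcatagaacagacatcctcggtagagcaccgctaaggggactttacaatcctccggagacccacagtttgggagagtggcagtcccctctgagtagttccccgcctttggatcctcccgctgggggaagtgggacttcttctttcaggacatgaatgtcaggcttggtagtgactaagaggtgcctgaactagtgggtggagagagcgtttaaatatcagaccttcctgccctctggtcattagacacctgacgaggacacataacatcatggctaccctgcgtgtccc
Ccl17: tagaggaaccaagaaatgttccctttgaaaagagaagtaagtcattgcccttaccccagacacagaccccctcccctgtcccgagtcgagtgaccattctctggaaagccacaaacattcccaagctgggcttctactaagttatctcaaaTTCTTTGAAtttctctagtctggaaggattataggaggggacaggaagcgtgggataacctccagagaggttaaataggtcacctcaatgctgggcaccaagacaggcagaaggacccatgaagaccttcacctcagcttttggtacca

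Motifs were searched on both strands: the kappa-B site, held by 4.51% of the 32851 promoter windows searched, the AP-1 site TGANTCA (7.81%), the core of the interferon-stimulated response element, GAAA repeated after a spacer of 2 bases (3.44%), the STAT site known as GAS, TTCNNNGAA (8.30%), and the TATA box TATAAA (13.6%). The Ccl17 window holds a GAS match at positions -99 to -91, counted from the RefSeq start, and matches to none of the other motifs. The Ccl22 and Ccl3 windows hold none of the 5 motifs. A match describes the letters of the window only.

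Among the inflammatory ligands, Ccl5 rose and Ccl3 and Ccl4 fell. Ccl5, also known as RANTES, draws T cells and monocytes. It read 1562, 1416, 1512, 1035 and 1199 before culture and 11993, 8744, 11064 and 11302 after. All samples after culture lay far above all samples before, and replicate 2 was the lowest of those after. The mean rose from 1345 ± 222 (SD, n = 5) to 10776 ± 1411 (SD, n = 4), 8.01-fold, with a log2 fold change of 3.01 ± 0.13 (SE; adjusted p = 2.18e-10 by limma), and 215 of the 18202 genes tested had a higher log2 fold change. NK cells and T cells also make Ccl5, and their part in its level was not tested. Of the 8 NK cell markers 7 fell and none rose, and of the 8 T cell markers 1 rose (Cd3g) and 2 fell (Trac, Cd4), with a summed T cell level of 6757 to 8425 before and 5986 to 8041 after.

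Ccl4, or MIP-1 beta, read 1845, 1760, 1888, 1904 and 2067 before culture, a coefficient of variation of 5.94%. After culture it read 89.2, 100.1, 44.6 and 48.7, from 49 to 132 reads per sample. The mean went from 1893 ± 113 (SD, n = 5) to 70.6 ± 28.1 (SD, n = 4), 26.8-fold lower, with a log2 fold change of -4.81 ± 0.21 (SE; adjusted p = 2.54e-10 by limma), and 102 genes had a lower log2 fold change. Ccl3, or MIP-1 alpha, is its neighbour and closest relative in function. It read 1877, 2154, 2708, 1846 and 2701 before culture and 750, 1089, 445 and 463 after. All samples after culture were below all samples before, with replicate 2 the highest of its group. The mean fell from 2257 ± 426 (SD, n = 5) to 687 ± 303 (SD, n = 4), 3.29-fold lower, with a log2 fold change of -1.80 ± 0.23 (SE; adjusted p = 1.13e-05 by limma). Per kilobase, Ccl3 was 0.835 to 1.24 times Ccl4 before culture and 7.24 to 9.38 times Ccl4 after. These ranges did not overlap, and the log2 fold change of Ccl4 was the more negative.

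Ccl3 and Ccl4 messages are known to be short-lived, and AU-rich elements in a 3′ UTR are a known signal for rapid decay. The AU-rich heptamer TATTTAT (sense strand) occurs in the annotated 3′ UTR of 3 of the 10 members, against 23.1% of all genes whose 3′ UTR is as long as the members' (183 to 2465 bases). The 29 bases around each match are shown, since they fall in members that moved both ways: Ccl3 and Ccl4 fell and Ccl22 rose. Capitals mark the heptamer.
Ccl3: gtatttgtgacTATTTATtctgaaagact
Ccl4: attatttctatTATTTATgttttagttat
Ccl22: agctatagttaTATTTATataggaaagag

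Ccl6 and Ccl9 are mouse ligands of CCR1 that are made in quantity by macrophages and other myeloid cells. Ccl9 read 2245, 2590, 4105, 1759 and 3614 before culture and 11302, 18391, 6683 and 10412 after. No sample after culture was as low as any before, but within the group after culture replicate 2 was far above replicate 3. The mean rose from 2863 ± 972 (SD, n = 5) to 11697 ± 4890 (SD, n = 4), 4.09-fold, with a log2 fold change of 2.01 ± 0.27 (SE; adjusted p = 2.01e-05 by limma).

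Ccl6 read 11874, 13825, 13292, 7650 and 11791 before culture and 12848, 21045, 8304 and 8082 after. The groups overlapped throughout, with before culture replicate 4 lowest of all and after culture replicate 2 highest. The means were 11686 ± 2423 (SD, n = 5) and 12570 ± 6062 (SD, n = 4), and the log2 fold change of 0.02 (SE 0.25) did not pass the test (limma adjusted p = 0.950). Ccl6 passed the threshold in no omission of 1 sample (lowest limma adjusted p 0.228). Without before culture replicate 4 and after culture replicate 2 together the log2 fold change was -0.41 (limma adjusted p = 0.0164). These were chosen after the values were seen, as the lowest and the highest sample, so a lower fold change follows from the choice. Over all alternatives, this one included, the adjusted p ran from 0.0164 to 0.955, and Ccl6 passed the threshold in no other. Before culture replicate 4 and after culture replicate 2 also had the lowest and the highest sum in their groups for 3 marker lists. These were monocyte and interstitial macrophage (123660 and 304635 normalized counts), neutrophil (14298 and 1902) and cDC2 (29693 and 31610), and their part in the result was not tested. Per kilobase, Ccl9 was 0.110 to 0.182 times Ccl6 in the samples before culture and 0.474 to 0.759 times Ccl6 in those after. The balance of the neighbours thus differed between the groups without overlap, although Ccl6 did not pass the test.

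Ccl9 (chr11:83572919-83578636) and Ccl6 (chr11:83587882-83593087) lie 9.25 kb apart on the minus strand. A transcript on the opposite strand of Ccl6, E230016K23Rik, had means of 46.2 ± 7.28 before and 43.9 ± 18.1 after culture. The strand setting of the counting is not given in the sources used here, so reads from overlapping genes on opposite strands cannot be told apart. The promoter windows of Ccl9 (chr11:83578587-83578886) and Ccl6 (chr11:83593038-83593337) are shown 5′ to 3′ on the minus strand because Ccl9 rose and Ccl6 did not pass the test; capitals mark motif matches.
Ccl9: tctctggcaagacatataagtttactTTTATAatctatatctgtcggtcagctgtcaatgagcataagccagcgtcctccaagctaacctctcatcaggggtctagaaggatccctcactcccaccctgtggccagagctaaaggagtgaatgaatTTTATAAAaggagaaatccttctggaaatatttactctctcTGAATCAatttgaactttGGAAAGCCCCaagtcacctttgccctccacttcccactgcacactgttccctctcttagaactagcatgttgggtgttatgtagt
Ccl6: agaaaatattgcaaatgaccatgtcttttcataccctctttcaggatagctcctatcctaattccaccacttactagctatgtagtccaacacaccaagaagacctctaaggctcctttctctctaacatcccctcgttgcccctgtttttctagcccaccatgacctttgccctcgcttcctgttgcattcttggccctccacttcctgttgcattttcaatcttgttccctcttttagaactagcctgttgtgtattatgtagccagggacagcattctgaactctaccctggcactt

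The Ccl9 window holds a kappa-B match at positions -35 to -26, an AP-1 match at -53 to -47, and TATA box letters at -224 to -219, on the strand opposite to the one shown, and at -94 to -87, where both strands match with an overlap. The Ccl6 window holds a match to none of the 5 motifs. A local alignment of the windows joined 74 columns, 59 of them identical (79.7%), from position -18 to 49 of Ccl9 and from -59 to 15 of Ccl6. Its score was 41, against 10 to 15 for the other pairs of the 5 windows. The aligned stretches, without gaps and with identical bases in capitals, show that the likeness lies around the starts, downstream of the kappa-B and AP-1 letters of Ccl9.
Ccl9: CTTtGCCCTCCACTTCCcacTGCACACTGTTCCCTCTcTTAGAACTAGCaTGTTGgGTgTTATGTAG
Ccl6: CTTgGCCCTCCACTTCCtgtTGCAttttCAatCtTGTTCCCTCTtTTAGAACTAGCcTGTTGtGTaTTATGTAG

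Of the CCR2 ligands, Ccl7 passed the test narrowly and Ccl2 did not. Ccl2, or MCP-1, the main chemokine that draws monocytes out of blood, read 826, 911, 1231, 421 and 1081 before culture and 693, 1141, 756 and 537 after. The samples after culture lay within the range of those before. The means were 894 ± 307 (SD, n = 5) and 782 ± 256 (SD, n = 4), and the log2 fold change of -0.16 (SE 0.27) did not pass the test (limma adjusted p = 0.619). It passed the threshold in no omission of 1 sample (lowest limma adjusted p 0.0732). Without before culture replicate 4, lowest of its group, and after culture replicate 2, highest of its group, the log2 fold change was -0.61 (limma adjusted p = 0.00187). These samples were chosen after the values were seen, so a lower fold change follows from the choice. Over all alternatives, this one included, the adjusted p ran from 0.00187 to 0.998, and Ccl2 passed the threshold in no other.

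Ccl7, or MCP-3, read 261, 267, 462, 187 and 353 before culture and 382, 748, 436 and 333 after. The groups overlapped: replicates 3 and 5 before culture were above the lowest sample after it. The mean went from 306 ± 105 (SD, n = 5) to 475 ± 187 (SD, n = 4), 1.55-fold, with a log2 fold change of 0.63 ± 0.26 (SE; adjusted p = 0.0439 by limma). This call was lost when before culture replicate 1 (0.58), 2 (0.59) or 4 (0.47) or after culture replicate 2 (0.38) or 3 (0.64) was left out. The adjusted p over all alternatives ran from 0.00629 to 0.283. The highest came from leaving out before culture replicate 4 and after culture replicate 2 together, chosen after the values were seen. Per kilobase, Ccl2 was 1.58 to 2.40 times Ccl7 before culture and 1.07 to 1.27 times Ccl7 after. Their receptor transcript, Ccr2, read between 10358 and 11510 before and between 1758 and 2118 after culture. It fell with a log2 fold change of -2.46 (limma adjusted p = 9.87e-12). Ccl2 (chr11:82035571-82037453) and Ccl7 (chr11:82045712-82047525) lie 8.26 kb apart on the plus strand, and the minus-strand gene Gm17268 overlaps Ccl2.

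Ccl24, or eotaxin-2, is known from alternatively activated macrophages and draws eosinophils through CCR3. It was the most uneven member before culture, at 172, 480, 1764, 56.9 and 576 in replicates 1 to 5, a coefficient of variation of 111%. After culture it read 69.8, 111.4, 37.3 and 55.5. The groups overlapped because replicate 4 before culture lay among the samples after it. The mean went from 610 ± 679 (SD, n = 5) to 68.5 ± 31.6 (SD, n = 4), 8.90-fold lower, with a log2 fold change of -2.42 ± 0.73 (SE; adjusted p = 0.00935 by limma). Its size turned on single libraries: the log2 fold change was -1.83 without before culture replicate 3 and -3.07 without before culture replicate 4, and it passed the threshold in both cases. Its receptor transcript, Ccr3, read between 120 and 274 before and between 81.9 and 275 after and did not pass the test (limma adjusted p = 0.748). Ccl24 lies at chr5:135569937-135573049 on the minus strand, apart from the other members.

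Per kilobase, the order of the ligands before culture was Ccl17 (9678 ± 1235 normalized counts per kilobase), Ccl22 (6838 ± 466), Ccl6 (6511 ± 1350), Ccl3 (2947 ± 556), Ccl4 (2868 ± 170), Ccl5 (1401 ± 231), Ccl9 (940 ± 319), Ccl2 (786 ± 270), Ccl24 (471 ± 525) and Ccl7 (382 ± 131). Of the neighbours in this order, the ranges of Ccl17 and Ccl22, of Ccl6 and Ccl3, and of Ccl4 and Ccl5 did not overlap. The ranges of all other neighbours overlapped, but within samples Ccl5 lay above Ccl9 and Ccl9 above Ccl2 in 5 of 5. The order of Ccl22 and Ccl6 (2 of 5), Ccl3 and Ccl4 (3 of 5), Ccl2 and Ccl24 (4 of 5) and Ccl24 and Ccl7 (3 of 5) varied between samples. After culture the order was Ccl22 (20883 ± 1208), Ccl5 (11225 ± 1469), Ccl6 (7003 ± 3377), Ccl9 (3841 ± 1606), Ccl17 (1282 ± 383), Ccl3 (897 ± 395), Ccl2 (687 ± 225), Ccl7 (593 ± 234), Ccl4 (107 ± 42.6) and Ccl24 (52.9 ± 24.4). There the ranges of Ccl22 and Ccl5, of Ccl9 and Ccl17, and of Ccl7 and Ccl4 did not overlap. Of the neighbours that did, Ccl6 and Ccl9, Ccl17 and Ccl3, Ccl2 and Ccl7, and Ccl4 and Ccl24 kept this order in 4 of 4 samples, and Ccl5 and Ccl6, and Ccl3 and Ccl2, in 3 of 4. With the longest transcript as the length, Ccl6 and Ccl22 changed places before culture, and their ranges overlapped in any case.

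As a share of the summed level per kilobase of the 10 genes, Ccl17 went from 29.5 ± 1.23% (SD, n = 5) to 2.73 ± 0.727% (SD, n = 4) and Ccl22 from 21.2 ± 3.62% to 45.2 ± 5.63%. Ccl5 went from 4.28 ± 0.581% to 24.4 ± 4.59% and Ccl9 from 2.81 ± 0.693% to 8.11 ± 2.75%. Ccl6 held 19.7 ± 2.43% before and 14.7 ± 5.72% after. Ccl3 and Ccl4 held 8.95 ± 0.996% and 8.84 ± 1.23% before and 1.88 ± 0.662% and 0.226 ± 0.0730% after. Shares are tied to each other, so a large gain of Ccl22 lowers the share of the others. The summed level itself was 26711 to 36285 normalized counts per kilobase before culture and 42519 to 51785 after, with no overlap.

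**Figure D3:**
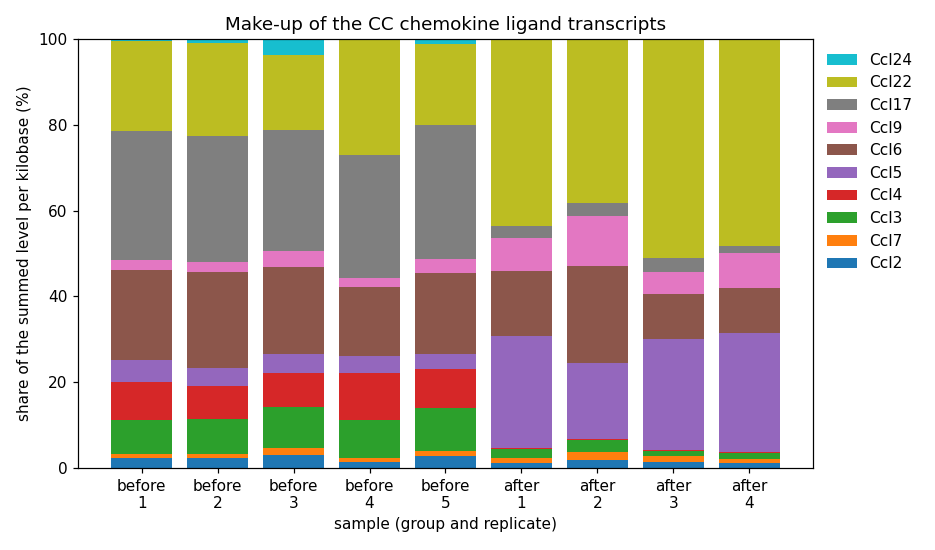
Share (%) of each of the 10 CC chemokine ligand genes in their summed level per kilobase, as 1 stacked bar per sample. Ccl17 and Ccl22 fill 29.5% and 21.2% on average before culture, and Ccl22 and Ccl5 fill 45.2% and 24.4% after.

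On chromosome 11, 5 members form a run: Ccl5 (chr11:83525778-83530518, minus strand), Ccl9, Ccl6, Ccl3 (chr11:83647844-83649355, minus strand) and Ccl4 (chr11:83662584-83664683, plus strand). The gaps between neighbours were 42.4, 9.25, 54.8 and 13.2 kb. Along it the log2 fold changes were 3.01, 2.01, 0.02, -1.80 and -4.81, so in this run the order of the values is the order of the genes. With 5 genes this is a description only. In the other run, Ccl2 and Ccl7 are followed by Ccl11, Ccl12, Ccl8 and Ccl1, which all fell.

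**Figure D4:**
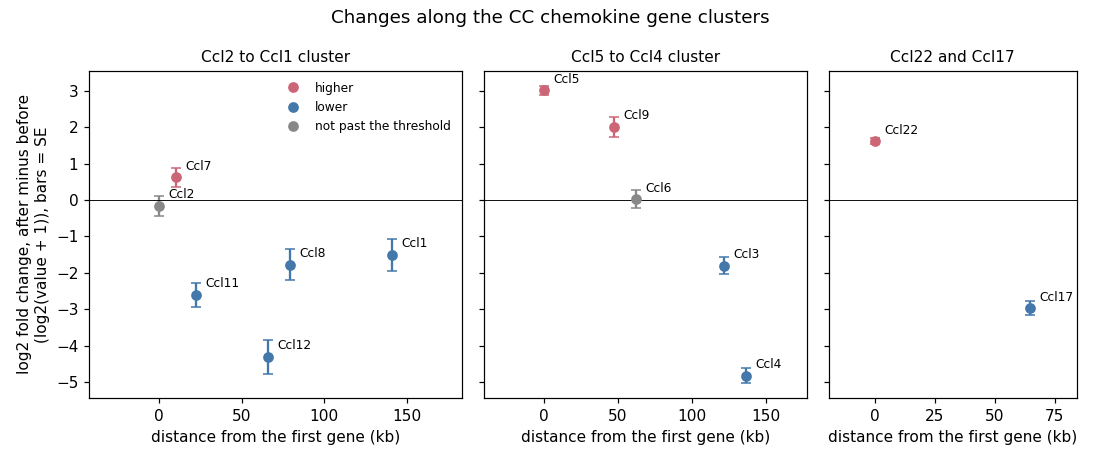
Log2 fold change after minus before culture (log2(value + 1), bars show the standard error) against distance in kb from the first gene of each cluster. The run from Ccl5 to Ccl4 goes from 3.01 to -4.81, and Ccl22 and Ccl17 lie on opposite sides of 0.

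The libraries differed in a way that touched many members together. Before culture replicate 4 was the lowest of its group in 8 of the 10 members, the exceptions being Ccl4 and Ccl22, and the highest in none. After culture replicate 2 was the highest in 8 of 10, and it was the lowest in the other members, Ccl5 and Ccl22. Before culture replicate 3 was the highest for Ccl2, Ccl7, Ccl3, Ccl9 and Ccl24. After culture replicates 3 and 4 were each the lowest in 4 members. By library name, after culture replicate 2 carries number 3 and after culture replicate 3 carries number 4. These are also the library numbers of before culture replicates 3 and 4. Whether a shared library number marks a shared source is not stated. Summed monocyte and interstitial macrophage markers were 163225, 195377, 181127, 123660 and 135708 before culture and 229801, 304635, 161867 and 258289 after, again lowest in replicate 4 before and highest in replicate 2 after. The same held without Lyz2 (34805 and 62927), for cDC2 markers and for neutrophil markers. The neutrophil and cDC2 sums, and the macrophage sum without Lyz2, were highest before culture in replicate 3 (25015, 47756 and 82830). Fibroblast markers were also highest in replicate 3 before (28708) and in replicate 2 after (4469). Summed mature dendritic cell markers were lowest in replicate 4 before (30144) and in replicate 2 after (185514). The part of any of these in the members' levels was not tested.

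**Figure D5:**
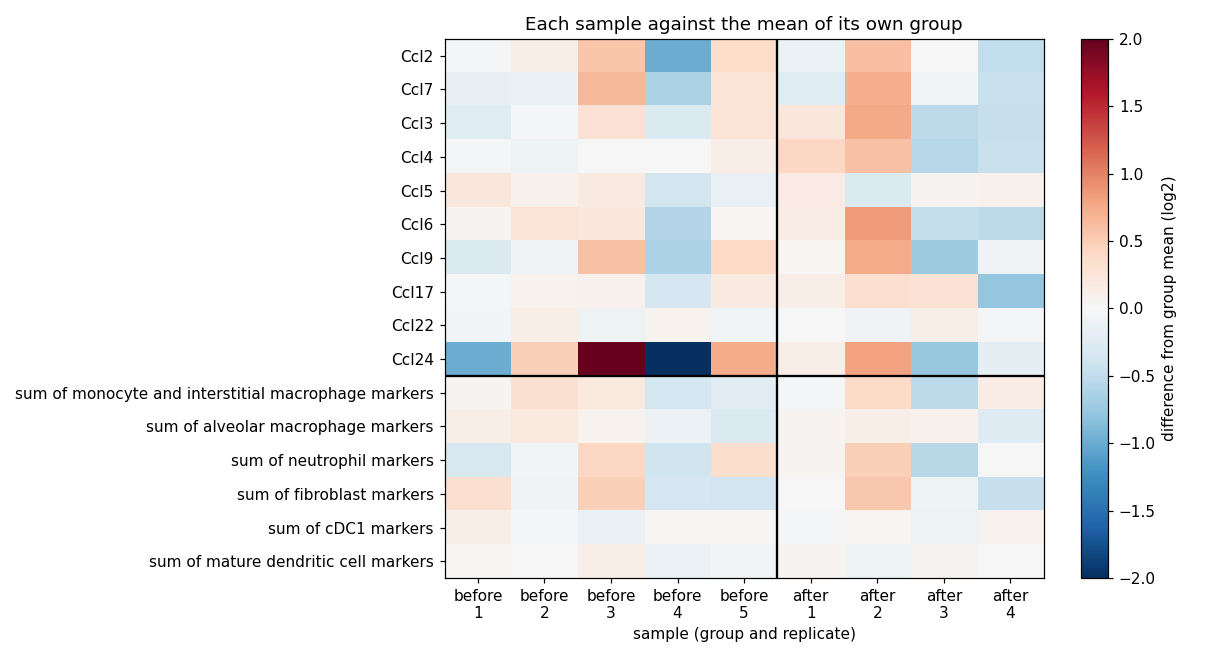
Deviation of each sample from its group's mean, in log2 units, for the 10 genes and for summed markers of 6 cell types, with red above and blue below the group mean and colours limited at 2 units. Before culture replicate 4 is below its group mean in 8 of the 10 genes, and after culture replicate 2 is above its group mean in 8.

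The genes whose pattern over the 9 samples was most like each member were found among 11766 genes, by the root-mean-square difference of log2 values centred on their means. The means were taken over both groups, so a gene near a strongly changed member has a similar change after culture. For example, Ccl5 had a log2 fold change of 3.01, Zc3h12d 2.96 and Arc 2.97. Nearest to Ccl22 were Gpr137b (0.081) and Golga1 (0.083), to Ccl5 Zc3h12d (0.156) and Arc (0.159), and to Ccl3 Vegfa (0.147) and E230013L22Rik (0.188). Nearest to Ccl17 were Cxcl10 (0.184), a chemokine gene of the CXC class, and Ppm1j (0.214). For Ccl6 they were Ifi27l2a (0.179) and Isg15 (0.182), both known as interferon-induced genes, and for Ccl7 4930430E12Rik (0.233) and Rsad2 (0.241), the latter also interferon-induced. For Ccl9 they were Treml6 (0.175) and Cdk20 (0.201), for Ccl2 Timp1 (0.161) and Rrs1 (0.260), and for Ccl4 Chsy3 (0.277) and Slamf9 (0.285). Ccl24 had no close gene, the nearest being Gm23262 (0.869) and Rmrp (0.907).

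Other CC ligand genes were scarce. Of the 14 found in the table, 6 passed the filter, 1 higher and 5 lower. Ccl25, a ligand of CCR9, rose from 225 ± 34.4 to 496 ± 86.3 (log2 fold change 1.13, limma adjusted p = 7.55e-06), but it overlaps Elavl1 on the opposite strand (2769 ± 167 before, 3010 ± 102 after), so its value is uncertain. Ccl12, a mouse ligand of CCR2, averaged 59.9 ± 34.9 before and 1.87 ± 1.30 after (-4.31, limma adjusted p = 2.62e-06). The eotaxin Ccl11 fell from 47.9 ± 23.0 to 6.55 ± 1.28 (-2.61, limma adjusted p = 8.15e-06), Ccl8 from 24.6 ± 12.3 to 6.72 ± 4.13 (-1.77) and Ccl1 from 22.1 ± 12.2 to 6.89 ± 3.88 (-1.51). Ccl27a fell from 39.5 ± 13.8 to 19.0 ± 4.91 (-0.98), but 69.2% of its 50-base windows occur in other genes and it overlaps Il11ra1, so its value is uncertain as well. Among the 10 members such shared windows were found only in Ccl9 (2.00%).

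CC receptor genes moved both ways. Ccr7, which guides mature dendritic cells to lymph nodes, rose from 7918 ± 372 to 53005 ± 2238 (log2 fold change 2.74, limma adjusted p = 4.56e-12), and Ccr6 from 360.3 ± 28.9 to 623 ± 64.0 (0.79). Ccr2 is given above, and Ccr8 fell from 225 ± 47.8 to 97.8 ± 34.2 (log2 fold change -1.23, past the limma threshold). Ccr1, a receptor for Ccl3, Ccl5, Ccl6 and Ccl9, averaged 2164 ± 409 and 2859 ± 856 and did not pass the test (0.37, limma adjusted p = 0.0910). Ccr9 did not either (-0.44, limma adjusted p = 0.0621). Both changed call without after culture replicate 3, when Ccr1 was higher (0.57, limma adjusted p = 0.00471) and Ccr9 lower (-0.61, limma adjusted p = 0.00980), and also with sample weights. Of 5 atypical receptors, which bind chemokines without the usual signalling, 3 fell and none rose. They were Ackr3 (1066 ± 159 to 42.2 ± 3.85), Ccrl2 (6624 ± 681 to 569 ± 118) and Ackr2 (435 ± 49.3 to 40.4 ± 11.8), a scavenger of inflammatory CC ligands.

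Cytokines that can induce these ligands mostly fell: 7 of 10 tested were lower and 1, Csf1, was higher. Il1b went from 22902 ± 3456 to 3895 ± 851 (log2 fold change -2.57), Tnf from 2773 ± 333 to 1071 ± 280 (-1.40) and Ifng from 137 ± 41.1 to 11.9 ± 6.24 (-3.49), all past the limma threshold. Csf2 (0.68, limma adjusted p = 0.0708) and Il4 (0.28, limma adjusted p = 0.419), known inducers of Ccl17, did not pass it, though Csf2 did without before culture replicate 3 (0.89, limma adjusted p = 0.0185). Of 12 NF-kB pathway genes 4 rose and 5 fell. Relb, of the alternative arm, rose with a log2 fold change of 1.73, Traf1 with 1.62, and the inhibitor Tnfaip3 fell with -2.37. Among IRF and STAT genes, Irf8 fell with a log2 fold change of -1.12 and Irf4 with -0.98. Of 10 genes that act in the control of mRNA decay, not all of them at AU-rich elements, 2 rose (Tia1, Cnot1) and 4 fell. The decay factors Zfp36 (-2.62), Zfp36l2 (-2.15) and Zc3h12a (-1.81) were among those that fell. Of 7 tested proteases known to trim chemokines, Mmp12 (4.67), Mmp8 (4.57) and Mmp13 (5.37) rose and Mmp9 (-3.88), Mmp2 (-2.59) and Cma1 (-2.72) fell. The medians of these lists lay at -1.06 (cytokines), -0.04 (NF-kB), -0.01 (decay) and 0.19 (proteases), beside 0.01 for all genes tested. The counts of these and the other lists are read beside the 34.2% of all genes tested that were higher and the 34.6% that were lower.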

How the data were processed

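RNA sequencing covered 9 samples, 5 before and 4 after culture, grouped by their titles. The values, as the authors deposited them, are normalized read counts in 1 table (a signal without values below 0), and DESeq2 and the build GRCm38 are named per the submitters' processing notes. The aligner, counting tool, strand setting and annotation are not given in the sources used here. All values (100%) were whole multiples of the value of 1 read (relative tolerance 1e-06), so whole reads were recovered, and the deposited scaling equals median-of-ratios size factors. A read is worth 0.758 to 1.79 normalized counts. The 3782 rows without a gene symbol, 3.87 to 10.9% of reads, were left out. Replicates of a group all differed by more than counting noise (chi-square over its degrees of freedom, 6.81 to 68.7).

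Genes with a mean of at least 10 were tested with limma 3.58.1 (R 4.3.3) on log2(value + 1), with a mean-variance trend, two-sided, with Benjamini-Hochberg adjustment over all 18202 genes tested and a threshold of 0.05. The fold change in log2 units understates the change of low genes; folds in words are ratios of mean normalized counts. Scripts were tested on simulated data. Reads carry no molecular identifiers, so the spread between replicates is used as the error.

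Members and lists were chosen with earlier results of these data known. Named are all 10 members, other CC ligands and receptors with a mean of at least 10, up to 3 genes of each other list with the smallest adjusted p, 5 cytokines (Tnf, Il1b, Csf2, Il4, Ifng), and the 2 nearest genes of each member with a mean of at least 100. Some genes that meet the rule are not reported here. Cell markers, and genes that complete a count of 5 or fewer, were named after their values were seen. Alternatives were a pseudocount of 0.5 or 8, a minimum mean of 50 or none, TMM, upper quartile and quantile scaling, sample weights, edgeR 4.0.16 and DESeq2 1.42.0 on the recovered reads, 2 replicate blocks, and leaving out each sample. Leaving out before culture replicate 4 and after culture replicate 2 together was added after the values were seen. It is counted among the 22 alternatives. The edgeR test called 12562 genes and limma 12524. Gene positions, lengths and 3′ UTRs came from GENCODE M21 (GRCm38), which may differ from the authors' annotation. Summaries and figures were made with matplotlib 3.10.9, pandas 2.3.3, Biopython 1.88 and NumPy 2.4.6 in Python 3.11.15.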

Additional observations from a re-analysis of the deposited data

Results flagged for a closer look

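Of 102 groups of samples tested for an outlying sample by Dixon's test at the 95% level, 2 had one, and chance flags about 1 in 20. Both were low values in before culture replicate 4, the library in which 8 of the 10 CC ligands were lowest. Relb was at 2634 normalized counts there, and Zfp36 was at 49515. None of the 10 CC ligands had an outlying sample by this test in either group.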

How the results depend on the processing

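Ccl3, Ccl4, Ccl5, Ccl9, Ccl17, Ccl22 and Ccl24 kept direction and call in all 22 alternatives run. Leaving out 1 sample moved Ccl24 between -3.07 and -1.83 (log2), Ccl7 between 0.38 and 0.79 (adjusted p 0.0110 to 0.154), Ccl2 between -0.41 and 0.0014 and Ccl6 between -0.27 and 0.19. Ccl7 lost its call with no filter (0.63, limma adjusted p = 0.0502) and with sample weights (0.45, adjusted p = 0.0880), and Ccl6 turned to -0.13 with sample weights. Without both before culture replicate 4 and after culture replicate 2, Ccl2 was at -0.61, Ccl6 at -0.41 and Ccl7 at 0.22 (limma adjusted p = 0.283), and 5 IRF and STAT genes were lower (3 with all samples). Ccr3 turned to 0.026 under quantile normalization, and to between 0.029 and 0.17 without before culture replicate 5 or after culture replicate 1 or 3, and Ccr4 to 0.0080 under quantile normalization. At a minimum mean of 50, 0 other CC ligands were lower (5 in the fit reported), since fewer genes were tested. Among atypical receptors 1 was higher without before culture replicate 4, alone or with after culture replicate 2 (0 otherwise). Among inducing cytokines 2 were higher under upper quartile and quantile scaling and without before culture replicate 3 (1 otherwise), and 5 decay genes were higher under upper quartile scaling (2 otherwise), which moved the median of all genes by 0.11 log2. The cause was not tested. A replicate block by title number gave 11646 calls, 1 by library number 12836, and no block 12524. Under the block by title number Ccr3 turned to 0.029 and 2 inducing cytokines were higher, and no member changed its call under either block. Ccr1 became higher and Ccr9 lower under the block by library number (0.34 and -0.45, limma adjusted p = 0.00769 and 0.0151) and with sample weights (0.38 and -0.38, limma adjusted p = 0.0304 and 0.0442), and Ccr1 under upper quartile scaling (0.48, limma adjusted p = 0.0272). Samples with the same title number correlated at -0.21 to 0.081 in their deviations and those with the same library number at 0.045 to 0.35. Of the samples after culture, 4 of 4 correlated best with the before culture sample of their own library number. The labels do not say what a shared number means, so the test reported was unpaired. A pairing by library number remains possible, and the unpaired p-values do not take it into account.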
